A study of Mus musculus with 721 samples.

Results

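At E4.5, around implantation, 79 of the 105 wells picked from mouse blastocysts were primitive endoderm (PrE), the sheet of cells that covers the epiblast on the side of the blastocyst cavity. A well was counted as PrE when its mean log2(CPM + 1), where CPM is the count of a gene scaled to 1000000 counts in that well, was higher over 6 endoderm genes (Dab2, Lama1, Lamb1, Lamc1, Cubn and Amn) than over the epiblast genes Sox2, Fgf4, Dnmt3b, Dnmt3l and Dppa4. A sixth epiblast gene of the rule, Slc7a3, has no row among those analysed here and was left out. PrE made up 75.2% of the E4.5 wells (exact binomial 95% interval 65.9 to 83.1, which covers counting error only) and came from 5 embryos, with 12 of 18 wells in embryo 1, 12 of 16 in embryo 2, 9 of 13 in embryo 3, 27 of 34 in embryo 4 and 19 of 24 in embryo 5. Embryos 1 and 2 were on plate P1 and embryos 3, 4 and 5 on plate P2. Of the 79 wells, 48 were labelled single and 31 double, by eye, when the cells were picked by hand.

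The whole series holds 721 wells from wild-type C57Bl/6Babr untreated embryos of 4 stages between E3.5 and E6.5. Besides PrE, use is made here of the 26 other E4.5 wells and of 99 wells of the inner cell mass (ICM) at E3.5. The labels place 90 of the E3.5 wells in 9 embryos and give no embryo for the other 9, which were treated as 1 more. At both stages the outer trophectoderm had been lysed with antibody and complement before dissociation, so the cells are those that survived this step and the picking. Each well was its own full-length cDNA library, and no cell barcodes are shared. PrE wells held 182338 to 2089903 counts (median 755266) and 4627 to 9125 detected genes (median 7257).

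The PrE arises from the ICM beside the epiblast under fibroblast growth factor signalling, with Gata6, Pdgfra, Sox17 and Gata4 as its best known genes. It then splits into parietal endoderm, which lays down the thick basement membrane of Reichert, and visceral endoderm, an absorptive epithelium that takes up and secretes proteins for the embryo. A small part of the visceral endoderm later becomes the anterior signalling centre that makes Lefty1, Cer1 and Dkk1, inhibitors of Nodal and Wnt.

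The rule parted the E4.5 wells clearly, but not all members lay far from it. The endoderm score ranged from 8.41 to 11.8 in PrE and from 0 to 5.97 in the other wells, and the epiblast score from 1.77 to 8.44 in PrE and from 5.40 to 8.71 in the others. The difference of the scores was 4.42 to 8.05 in 73 PrE wells and 0.80 to 2.27 in the other 6, and the nearest wells outside the class had -2.10, -2.91 and -3.38. These values chose the members and were not tested.

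**Figure D1:**
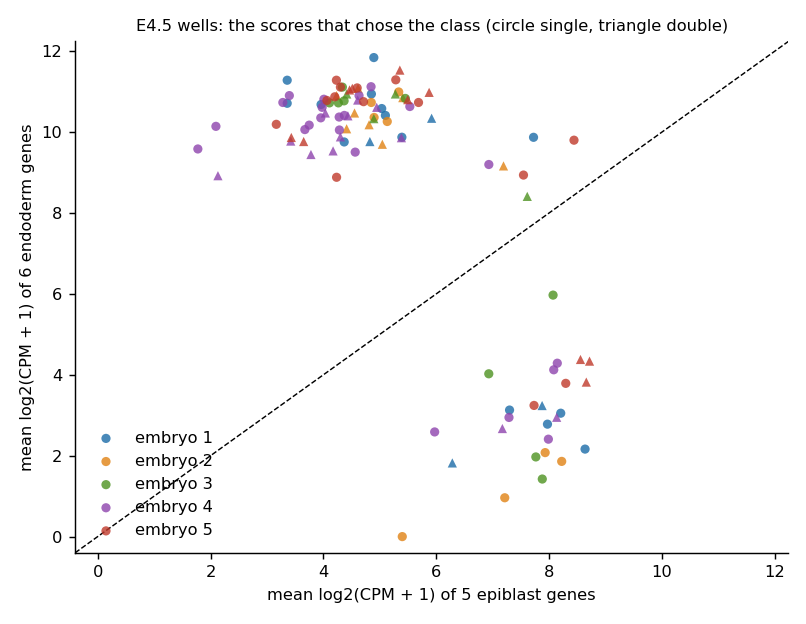
Mean log2(CPM + 1) of the 6 endoderm genes (vertical) against that of the 5 epiblast genes (horizontal) in each of the 105 E4.5 wells, coloured by embryo, with circles for single and triangles for double wells; wells above the dashed line of equality are PrE. All 5 embryos add wells to the upper left group, and 6 wells with 6.93 to 8.44 on the epiblast axis lie above the line but apart from the others.

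Markers that the rule did not use went with the label. Pdgfra, the receptor for platelet-derived growth factor A, had counts in 79 of 79 PrE wells and in 0 of 26 other E4.5 wells. Gata6, a GATA factor that drives the lineage, had counts in 77 PrE wells and 3 others, Gata4 in 79 and 3, Sox17 in 67 and 3, and Sox7 in 76 and 5. Trophectoderm markers were sparse. Cdx2 and Tfap2c had no count in PrE, Elf5 a count in 1 well and Gata3 in 4, while the keratins Krt8 and Krt18, which are also found in endoderm, had counts in 33 and 29. The authors had removed cells with more than 1 count in each of Elf5, Wnt7b and Tex19.1 as trophoblast. The scarcity of these markers is therefore not independent of that filter. The same score rule took 5 of the 5 wells that were labelled visceral endoderm at E5.5 and 14 of 99 wells at E3.5, the latter with differences of at most 2.36. At E6.5 it took 133 of 250 wells, most of them with Sox2 counts, so that set is no endoderm class and PrE was not compared with it.

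PrE carried the markers of neither daughter tissue in full. Of 6 parietal endoderm markers, Sparc and Srgn had counts in 79 of 79 wells, Pth1r in 77, Snai1 in 32, Plat in 28 and Thbd, encoding thrombomodulin, in none. Of 6 visceral endoderm markers, Hnf4a had counts in 65 wells and Ttr, encoding the carrier protein transthyretin, in 55, while Ihh had them in 29, Apoa1 in 8, Apob in 4 and Afp in 2. Of 6 anterior visceral endoderm markers, Dkk1 had counts in 76 wells, Hhex in 62, Lefty1 in 37, Lhx1 in 28, Otx2 in 10 and Cer1 in 1. Summed over each embryo's PrE wells, the 6 parietal markers together had 3950 to 6963 CPM, the 6 visceral markers 84.1 to 209 and the 6 anterior markers 209 to 747. Most of the parietal sum came from Sparc and Srgn, and Sparc also had counts in all 26 other E4.5 wells. The strong uptake and lipid genes Lrp2 and Apoe are not among the 6 visceral markers. Each sum thus follows the level of its strongest genes and does not measure a bias to either tissue.

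Gata6 had 143, 199, 244, 184 and 140 CPM in the summed counts of embryos 1 to 5, and single wells ranged from 0 to 600. Gata4 had 283, 239, 355, 215 and 192 CPM, with wells between 1.496 and 690. Sox17, an HMG-box factor of endoderm, had 111, 168, 183, 111 and 53.3 CPM, lowest in embryo 5, and wells reached from 0 to 743. Sox7, its close relative, had 223, 218, 261, 137 and 184 CPM, and Foxq1, a forkhead factor, 349, 322, 245, 221 and 146. In single wells Sox7 ran from 0 to 658 CPM and Foxq1 from 0 to 920.

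To compare programs, 24 gene lists were scored in every PrE well as the mean log2(CPM + 1) of the list's detected genes without the rule genes, and the standard deviation (SD) over wells was taken within each embryo. The median of this spread over the 24 lists was 0.74. Cholesterol synthesis varied most (SD 1.04), followed by the genes of G2 and M phase (0.91), receptors and ligands of the PDGF and FGF families (0.91), epiblast genes (0.91), FGF-ERK feedback targets (0.89), basement membrane (0.88) and anterior visceral endoderm genes (0.85). Programs of housekeeping and of secretion were steadier, with 0.21 for oxidative phosphorylation, 0.34 for cytosolic ribosomal proteins, 0.40 for translocation into and vesicle export from the endoplasmic reticulum (ER), 0.40 for apolipoproteins and serum proteins, 0.52 for ER chaperones and 0.56 for endocytosis and lysosome. The spread of the epiblast genes was 0.51 without the 6 wells of small score difference. A list's spread also depends on its level and number of genes, so the order is a description. The scores and their spread were not corrected for the number of genes detected in a well. In embryo 4 the basement membrane score was 2.87 and 2.38 in the wells with 4627 and 4794 detected genes. It was 4.86 and 5.96 in those with 8775 and 9125. How much of each spread follows gene detection was not tested.

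**Figure D2:**
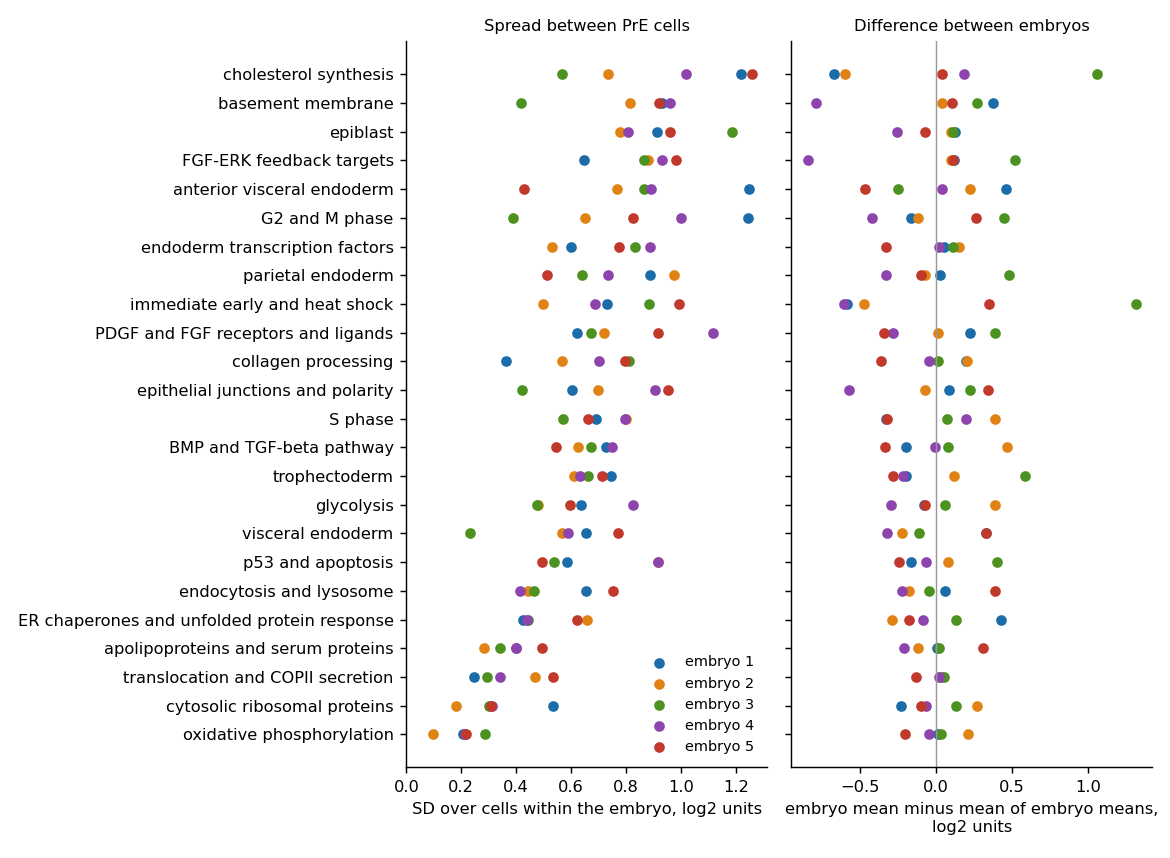
Left, the SD of each program score over the PrE wells of an embryo; right, the embryo's mean score minus the mean of the 5 embryo means, both in log2 units, with 1 point for each embryo. Cholesterol synthesis has the widest cell-to-cell spread (pooled SD 1.04) and oxidative phosphorylation the narrowest (0.21), and embryo 3 stands to the right in immediate early and heat shock genes (6.02 against 4.09 to 5.04).

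Genes for folding secreted proteins were widely present in PrE wells, though not all were even in level. The ER chaperone list holds 27 genes, of which Creld2 and Herpud1 ranked 41 and 94 among the variable genes described below. Hspa5, Hsp90b1, Calr, Pdia6, Manf and Sdf2l1 had counts in 79 of 79 wells. Several of these genes carry in their promoters the ER stress element, read by the unfolded protein response factors, which consists of the half-sites CCAAT and CCACG with 9 bases between them. The element was searched on both strands in RefSeq promoter windows (build GRCm38.p6) from 250 bases before to 50 bases after the start of transcription, and 23 of the 27 genes had a window. It was found in 8 of these 23 (34.8%), namely Calr, Canx, Creld2, Dnajc3, Hsp90b1, Hspa5, Pdia6 and Syvn1, in 0 of 25 windows of the translocation and export list, and in 37 of all 27025 genes with a window (0.137%). A match of letters is a description and not a proven site. The sequences below are shown for 4 of the genes because they hold the element beside which the levels below are given, with the half-sites in capitals; on the opposite strand they read CGTGG, 9 bases and ATTGG. The windows follow RefSeq starts, and the GENCODE models of these 4 genes start further upstream. Only bases before both starts are therefore shown for Hsp90b1, Calr and Pdia6, and for Hspa5, whose element lies before the RefSeq start but inside the GENCODE gene model, the element alone.
Hspa5 (chr2:34772025-34772043, plus strand): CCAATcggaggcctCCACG
Hsp90b1 (chr10:86705510-86705694, minus strand): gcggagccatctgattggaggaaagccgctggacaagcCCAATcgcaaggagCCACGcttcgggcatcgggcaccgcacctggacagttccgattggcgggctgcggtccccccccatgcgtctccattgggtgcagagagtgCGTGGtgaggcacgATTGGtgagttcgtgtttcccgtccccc
Calr (chr8:84846935-84847181, minus strand): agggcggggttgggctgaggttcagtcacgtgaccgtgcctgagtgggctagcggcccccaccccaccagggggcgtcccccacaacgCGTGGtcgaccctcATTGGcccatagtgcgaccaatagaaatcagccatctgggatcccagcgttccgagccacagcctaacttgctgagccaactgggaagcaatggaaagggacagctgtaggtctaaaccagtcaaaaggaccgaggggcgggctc
Pdia6 (chr12:17266339-17266544, plus strand): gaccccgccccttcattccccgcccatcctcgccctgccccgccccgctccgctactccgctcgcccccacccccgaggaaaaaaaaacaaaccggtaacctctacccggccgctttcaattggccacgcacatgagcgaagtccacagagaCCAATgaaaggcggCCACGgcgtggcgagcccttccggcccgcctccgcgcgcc
Hspa5, Hsp90b1 and Pdia6 have the element in the direction of transcription, Hsp90b1 has a further one on the opposite strand, and Calr has it on the opposite strand only.

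Hspa5, the ER chaperone BiP (chr2:34771970-34777547), had 3518, 1832, 2725, 2754 and 3038 CPM in embryos 1 to 5, and single wells ranged from 740 to 6727. Hsp90b1, the ER member of the Hsp90 family, had 3181, 1950, 2833, 3415 and 3148 CPM. Embryo 2 was lowest for both. Calr, the lectin chaperone calreticulin, had 1346, 902, 1017, 895 and 845 CPM. Pdia6, a disulfide isomerase, had 1559, 507, 974, 813 and 654 CPM, highest in embryo 1 as Calr was. Manf, a secreted ER stress factor, had 1168, 429, 937, 867 and 923 CPM, and Sdf2l1, a partner of BiP, 652, 379, 437, 430 and 293.

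Within embryos, a small group of ER genes went with Hspa5 from well to well. Correlations are Spearman's rho over the wells of an embryo after the total count and the number of detected genes were regressed out, given as the median of 5 embryos; the wells of an embryo share its plate, and no p is given. Manf had a median rho of 0.68 with Hspa5 (0.28 to 0.76 over embryos), the highest of 8046 genes among those with the same sign in every embryo. Sdf2l1 followed with 0.63 (0.14 to 0.95), and Xbp1, the spliced transcription factor of the unfolded protein response, had 0.49 (0.05 to 0.68). Of 26 list genes besides Hspa5, 7 were above 0 in every embryo and 21 had a median above 0, while 3.06% of all genes were above 0 in every embryo. The 7 measured genes with the element besides Hspa5 had median values between 0.11 and 0.29. Their median was 0.24, and that of the 19 list genes with no element found, some of them without a window, was 0.20. Manf, Sdf2l1 and Xbp1 were among these 19. None of the 31 genes of translocation and export was above 0 with Hspa5 in every embryo.

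Basement membrane had the widest spread over wells among the programs of secreted proteins (SD 0.88, against 0.68 for collagen processing and 0.40 for serum proteins). These spreads, and the embryo scores below, were not corrected for the number of detected genes. Sparc, a collagen-binding matrix protein (chr11:55394500-55423183), had 4011, 2765, 3334, 2637 and 2986 CPM in embryos 1 to 5, with wells from 1091 to 6941. Col4a1 and Col4a2, the chains of type IV collagen that lie head to head on chromosome 8 (chr8:11198423-11312826 and chr8:11312805-11449287, overlapping by a few bases), had 991, 886, 1157, 550 and 912 CPM and 707, 620, 829, 369 and 660 CPM. Embryo 4 was lowest for both chains, and its basement membrane score (4.26) was below those of the other embryos (5.09 to 5.43). Hspg2, the proteoglycan perlecan, ranged from 0 to 2633 CPM between wells and was among the 20 most variable genes of the class. Fn1, encoding fibronectin, had counts in 55 PrE wells, at 44.4 ± 16.5 CPM (SD, n = 5 embryos), against 248 ± 64.7 in the other E4.5 wells, where all 26 had counts.

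Several matrix genes, though not all, moved with Sparc between wells of the same embryo. Col4a1 had a median rho of 0.71 with it (0.10 to 0.78), Col4a2 0.59 (0.48 to 0.90), the rule gene Lamb1 0.46 (0.20 to 0.90), Pth1r, the receptor of parathyroid hormone-related protein, 0.42 (0.35 to 0.72), and Gata4 0.38 (0.14 to 0.72). The prolyl hydroxylase subunit P4hb had 0.42 (0.37 to 0.85). Of the 14 basement membrane genes 11 had a median above 0, while Nid2 had -0.42, Lama5 -0.16 and Smoc1 -0.13. Counting the genes above 0 in every embryo gave 5 of 14 for basement membrane, 5 of 15 for collagen processing and 6 of 14 for parietal endoderm, against 5.47% of 8046 genes. Of the 5 basement membrane genes above 0 in every embryo, 3 (Lama1, Lamb1 and Lamc1) are rule genes. Lamb1 is counted in both the basement membrane and the parietal tally, and the lists share other members. The tallies are therefore not independent of the rule or of each other. Among the genes at the other end, the histone variant H2afz had -0.69 (-0.75 to -0.53) and Ptma, encoding prothymosin, -0.58 (-0.63 to -0.46). With the 6 wells of small score difference left out, the value for Col4a1 was 0.45, that for Col4a2 0.47 and that for Lamb1 0.25. In single wells alone Col4a1 had 0.05 and Col4a2 0.81.

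Scores of whole lists gave only part of this grouping, with shared genes left out of both lists. Basement membrane had a median r of -0.14 with parietal endoderm (-0.26 to 0.45 over embryos, of the same sign in 3 of 5) and of 0.39 with collagen processing (-0.34 to 0.46). Of 276 pairs, 30 had a correlation of the same sign in all 5 embryos, and 12 of these had a median r of at least 0.3 in size. Collagen processing and parietal endoderm had the highest median r, 0.71 (0.43 to 0.93 over embryos), followed by endocytosis and visceral endoderm with 0.64 (0.36 to 0.76). Visceral and parietal endoderm scores were also positively correlated (0.33, 0.01 to 0.60), and the value was 0.09 in single wells alone. Parietal endoderm had 0.32 with genes of G2 and M phase (0.02 to 0.35), and collagen processing 0.31 with glycolysis (0.21 to 0.54). FGF-ERK feedback targets had 0.37 with S phase (0.08 to 0.50), and 0.17 in single wells alone. Parietal endoderm had 0.46 with the trophectoderm list (0.04 to 0.84), 0.58 in single wells alone and 0.50 without the 6 wells of small score difference. In that list Cdx2 and Tfap2c were at 0 in PrE, Krt8 and Krt18 had counts in 33 and 29 wells, and Eomes, Fgfr2 and Id2, which endoderm also uses, in 66, 68 and 76. The part of trophectoderm RNA in this value was not tested. Negative values between epiblast genes and parietal endoderm (-0.50) or endocytosis (-0.50) went to -0.25 and -0.02, each with the same sign in only 3 embryos, once the 6 wells of small score difference were left out.

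The uptake genes Lrp2, Ctsl and Ctsz had counts in 79 of 79 PrE wells, and embryo 5 was highest for Lrp2 and Ctsl. Lrp2, the endocytic receptor megalin, which works with the rule genes Cubn, Amn and Dab2, had 2528, 1913, 2194, 1470 and 3752 CPM in embryos 1 to 5. The lysosomal proteases Ctsl and Ctsz had 2557, 1356, 1357, 2020 and 3780 CPM and 1563, 1082, 842, 745 and 1296 CPM. Srgn, encoding the proteoglycan serglycin, had 1028, 1028, 879, 2239 and 3755 CPM, so its values fell apart by embryo more than those of Sparc did, and Lrp2 was among its 8 closest genes (rho 0.57, 0.07 to 0.81). Apoe, encoding a lipid carrier, had 3536, 1595, 1112, 1503 and 3202 CPM. Its level of 2190 ± 1098 CPM (SD, n = 5) overlapped that of the other E4.5 wells, 2465 ± 883. With Apoe, Cltc, the heavy chain of clathrin, had a rho of 0.52 (0.29 to 0.60), Hnf4a 0.39 (0.06 to 0.77) and the lysosomal protease Ctsd 0.32 (0.07 to 0.62). Above 0 in every embryo were 4 of 32 endocytosis and lysosome genes, 1 of 10 visceral endoderm genes and 0 of 7 apolipoprotein and serum protein genes, against 3.78% of 8046 genes. The rule gene Amn is among the 4 (lowest 0.007), and the rule genes Cubn and Dab2 are among the 32. The first tally is therefore not independent of the rule. The medians of Ttr, Slc39a8 and Apom were -0.07, -0.14 and -0.19.

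Ligands and receptors of the FGF family were unevenly spread over PrE wells. Fgfr3 had counts in 58 wells (164, 110, 148, 71.9 and 118 CPM in embryos 1 to 5) and in 1 of 26 other wells. Fgfr2, the receptor linked to PrE formation, had counts in 68 wells and 38.2, 47.3, 77.6, 45.5 and 12.2 CPM, lowest in embryo 5. Fgfr1 had counts in 25 wells and 11.4 ± 7.22 CPM, against 60.1 ± 20.3 CPM and 22 of 26 wells in the other E4.5 cells. Fgf3 had counts in 59 wells, with 126, 57.7, 103, 78.4 and 42.3 CPM, and 2 of the other wells had any. Pdgfa, the ligand of Pdgfra, was found in 67 PrE wells and all 26 others, at 80.2 ± 40.7 and 173 ± 61.9 CPM.

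The most variable genes of the class included the Nodal inhibitors Lefty1 and Lefty2. Genes were ranked by the distance of their squared coefficient of variation from that of genes of like mean, within each embryo, and 652 of 8037 genes were above 0 in every embryo. The first 20 were Tdgf1, Mylpf, Fam25c, Igfbp2, Id1, Lefty1, Lefty2, Spp1, Morc1, 2410004A20Rik, Zfp934, Gsta4, Aqp8, Zfp944, Hspg2, Cyp4f14, Zfp873, Spink3, Peg3 and Mt1. Id1, a target of BMP signalling, had 218, 205, 248, 599 and 200 CPM in embryos 1 to 5, high in embryo 4, and wells ranged from 0 to 1356. Spink3, a trypsin inhibitor, had 153, 401, 498, 314 and 992 CPM and wells up to 3088, and Aqp8, a water channel, 240, 126, 179, 160 and 428 CPM. Spp1, encoding osteopontin, ranged from 0 to 2884 CPM, and Mt1, a metallothionein, from 0 to 1789. Near-identical members of the zinc finger family such as Zfp934, Zfp944 and Zfp873 may have shared reads, and their values are uncertain.

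Lefty1 was on in part of the PrE of every embryo, in embryo 3 in double wells only. It had counts in 37 of 79 wells (46.8%, 95% exact binomial interval 35.5 to 58.4, which covers counting error only and takes wells as independent, though the share ran from 22.2% to 66.7% between embryos), with 8 of 12 in embryo 1, 5 of 12 in embryo 2, 2 of 9 in embryo 3, 15 of 27 in embryo 4 and 7 of 19 in embryo 5, in 21 of 48 single and 16 of 31 double wells. Both wells of embryo 3 with counts were double, 1 of them a well of small score difference, and 0 of its 5 single wells had any. In wells with counts the level ran from 0.80 to 1121 CPM (median 260), and 36 of the 37 had at least 10 CPM. Among the other E4.5 wells 3 of 26 had counts, and at E3.5 3 of 99. Over all wells the depth was a median of 731949 counts and 7291 genes in wells with Lefty1 and 842996 counts and 7255.5 genes in those without, but it differed within embryos. In embryo 1 the medians were 488907 counts with and 328268 without Lefty1. In embryo 4 they were 931356 and 1301720 counts, with 7473 and 6872 genes.

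Wells with Lefty1 also had more Lefty2 and Nodal, the ligand that both inhibit. The split by Lefty1 was chosen after its values were seen, so the differences that follow are a description with no test. In embryo 3 they rest on 2 double wells with Lefty1, 1 of them a well of small score difference. Lefty2 had counts in 29 of 37 wells with Lefty1 and in 7 of 42 without, and its mean log2(CPM + 1) was higher in the former by 8.23, 3.31, 6.87, 4.55 and 1.12 in embryos 1 to 5. Lefty1 (chr1:180935022-180938400) and Lefty2 (chr1:180893108-180899103) are near-identical neighbours, and reads of one counted on the other were not tested. Nodal (chr10:61417972-61425338), which is not so alike, had counts in 23 of 37 and 4 of 42 wells, with differences of 4.36, 4.35, 5.34, 1.82 and 0.85. Has2, a hyaluronan synthase, had a median of 2.63 (2.07 to 5.30), Fam25c 2.72 (1.10 to 6.98), Pdgfa 2.08 (0.03 to 4.77) and Dusp6, a feedback phosphatase of ERK, 2.55 (0.29 to 3.95). All were higher in every embryo, as were 5.53% of 8047 genes. Without the wells of small score difference, Has2 and Fam25c were higher in 4 of 4 embryos, but Pdgfa and Dusp6 in 3 of 4.

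Sox17 went the other way. Its differences between wells with and without Lefty1 were -1.98, -0.73, -0.84, -1.26 and -4.45 in embryos 1 to 5, and over wells Lefty1 was among the genes with the lowest rho with Sox17, -0.56 (-0.85 to -0.32), beside Fam25c with -0.67 (-0.80 to -0.06). Ihh, a hedgehog ligand of visceral endoderm, was lower by a median of -2.01 (-4.55 to -0.57), Akt1 by -2.68 (-3.41 to -0.15) and Tram2, a translocon protein, by -2.77 (-3.75 to -0.17). Lower in every embryo were 2.77% of all genes, and 5 of 32 endocytosis and lysosome genes (Ap2b1, Atp6v0a1, Ctsh, Ctsl and Lamp1) and 6 of 31 translocation and export genes. The factors Gata6, Gata4, Pdgfra, Sparc, Eomes, Dkk1 and Hhex did not keep 1 sign across the embryos, Hhex with 3.89, 1.27, -0.31, 4.07 and 0.49. The epiblast genes Pou5f1 and Utf1 and the rule genes Sox2 and Dppa4 were higher in every embryo. The values of the 6 wells of small score difference, 5 of which had Lefty1, bear on this. Without them 4 embryos kept more than 1 well of each kind, and Pou5f1 was higher in 3 of these 4. Lefty2 and Nodal, in contrast, were higher in 4 of 4, by medians of 3.44 and 3.20, and Sox17 was lower in 4 of 4. Ihh and Tram2 were higher in 0 of these 4 embryos and Akt1 in 1. In single wells alone, with 4 embryos, Nodal was higher in 4, Lefty2 in 3 and Sox17 in 1.

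**Figure D3:**
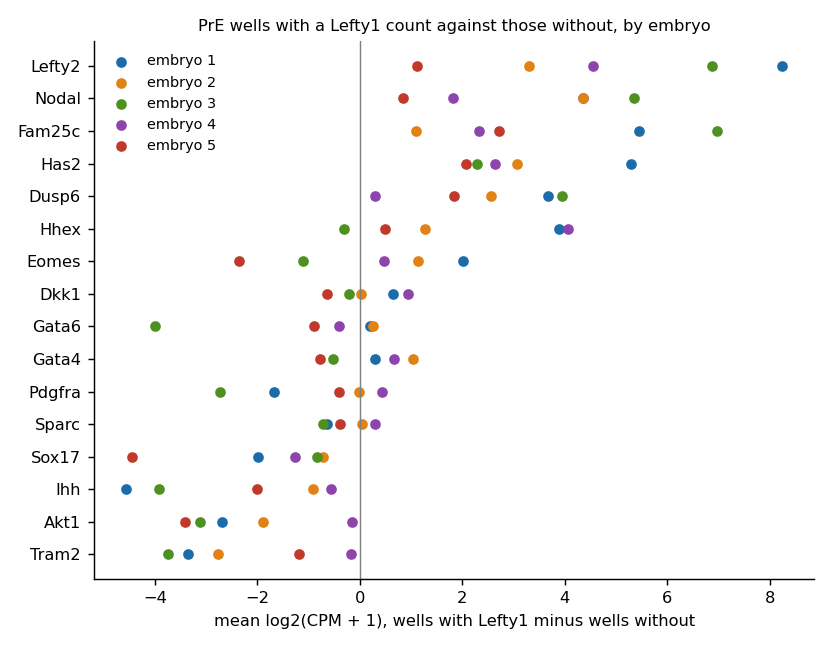
Mean log2(CPM + 1) in PrE wells with a Lefty1 count minus that in wells without, for each embryo (points), with the line at 0. Lefty2, Nodal and Has2 lie to the right of 0 and Sox17, Ihh, Akt1 and Tram2 to the left in all 5 embryos, while Gata6, Gata4 and Dkk1 lie on both sides.

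The 6 PrE wells with small score differences held endoderm and epiblast genes together. They came from all 5 embryos, 4 were labelled single and 2 double, and they had a median of 7811.5 detected genes against 7254 in the other 73 wells. Tdgf1, the Nodal co-receptor Cripto, had 593 to 1569 CPM in them, 0 to 110 in the other PrE wells and 673 to 2786 in the 26 E4.5 wells outside PrE. Nanog, a pluripotency factor, had counts in 5 of the 6 wells and in 7 of the 73, Igfbp2 had 210 to 1082 CPM against at most 90.8, and Mylpf 484 to 1737 CPM against at most 222. Endoderm genes that the rule did not use were present in the same wells, with Gata4 at 91.2 to 197 CPM, Pdgfra at 2.09 to 324, Sparc at 1091 to 2178 and counts of Gata6 and Sox17 in 5 of 6 each. In the 26 other wells Gata4 had at most 4.497 CPM, Pdgfra none and Sparc at most 888. The places of Tdgf1, Igfbp2, Morc1 and Mylpf among the most variable genes rest on these wells: without them Mylpf had a negative distance (-0.15) and the other 3 no longer reached the minimum mean of 10 CPM. Whether the wells held 1 cell with both programs or a pair of cells was not tested beyond the labels.

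Some programs differed between embryos more than others. Between embryos lay 42.5% of the variance of immediate early and heat shock genes, 29.0% of oxidative phosphorylation, 25.3% of FGF-ERK feedback targets and 23.5% of basement membrane, but 3.26% for translocation and export and 5.20% for endoderm transcription factors. Single embryos carried several of these shares. Without embryo 4 the share was 3.34% for FGF-ERK feedback targets and 2.61% for basement membrane, without embryo 3 it was 23.3% for immediate early and heat shock genes, and without embryo 2 it was 14.7% for oxidative phosphorylation. Without embryo 5 it was 0.148% for translocation and export and 0.487% for endoderm transcription factors, and without embryo 4 it was 8.998% for the latter. Immediate early genes stood highest in embryo 3, where Fos had 205 CPM against 1.79, 2.62, 11.1 and 58.2 in embryos 1, 2, 4 and 5. Fosb had 86.9 CPM there and 0 to 20.5 in the others, and Egr1 had 32.2, 34.4, 200, 32.4 and 104 CPM and Jun 11.7, 12.6, 93.9, 24.9 and 61.4 in embryos 1 to 5. These genes are quickly induced when cells are stimulated. Embryos 4 and 5 share plate P2 with embryo 3. Fos and Jun were higher in each embryo of P2 than in embryos 1 and 2 of P1, while Egr1 in embryo 4 was not. Plate and embryo cannot be told apart for these genes. FGF-ERK feedback targets were lowest in embryo 4 (2.07 against 3.02 to 3.43), also the embryo with the lowest basement membrane score.

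The cholesterol synthesis score was lowest in both embryos of plate P1 and highest in embryo 3. It was 4.58, 4.66, 6.32, 5.44 and 5.30 in embryos 1 to 5. Sqle, encoding squalene epoxidase, had 174, 58.2, 417, 169 and 151 CPM, and Cyp51, a lanosterol demethylase, 115, 99.4, 285, 188 and 171. Hmgcs1, the HMG-CoA synthase of the pathway, had 46.3, 74.1, 194, 159 and 244 CPM. The single genes did not all keep this order, since Sqle was higher in embryo 1 than in embryos 4 and 5 and Hmgcs1 was highest in embryo 5. Over wells, all 22 tested genes of the list had a positive median rho with Hmgcs1 and 6 were above 0 in every embryo (3.12% of 8046 genes), among them Lss with 0.40 (0.07 to 0.69) and Cyp51 with 0.26 (0.20 to 0.55). Of the 6, Pmvk had a lowest value of 1.13e-17, which is 0 but for rounding. A sterol regulatory element, ATCAC followed at once by CCCAC, was found in 0 of 16 promoter windows of the list and in 0.0999% of all.

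Set beside the ICM of the day before, PrE was higher in secretory, matrix and uptake genes. Counts were summed over each embryo's wells and tested with edgeR's quasi-likelihood test over 12250 genes, 5 PrE sums against 10 E3.5 sums, and calls needed a Benjamini-Hochberg adjusted p no higher than 0.05 together with a log2 difference beyond 1 in either direction. There were 1841 called genes (15%), 1163 higher (9.49%) and 678 lower (5.53%) in PrE, without the rule genes; the median log2 difference of all genes tested was 0.07, and 1186 genes (9.68%) did not overlap between the groups. PrE had been chosen for endoderm over epiblast genes, so lists of those kinds are not independent of the choice. The fit also held the E6.5 wells that passed the rule, which are no endoderm class, and they entered the filter on low counts and the estimate of spread. In a fit of the 2 groups alone, over 10576 genes, 1548 were called, 801 higher and 747 lower. Higher genes were thus 51.7% of the calls against 63.2%. Between the fits 1246 genes were shared, which is 67.7% of the first list and 80.5% of the second. The shares of all genes set beside the lists below belong to the fit with E6.5 wells. Of the 1841, 439 were not tested in the fit of 2 groups, and 1246 of the other 1402 were called in it. Stage and plate cannot be told apart here, since no plate holds both stages.

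Of 27 tested ER chaperone genes 20 rose and none fell, with a median log2 difference of 2.09 over the list. Hspa5 had 618 ± 286 CPM (SD, n = 10) at E3.5 and 2773 ± 615 in PrE (log2 difference 2.10, SE 0.30, adjusted p = 4.14e-06), Manf 83.8 ± 46.6 and 865 ± 269 (3.30, SE 0.33, adjusted p = 5.66e-09), and Pdia6 94.4 ± 55.5 and 901 ± 407 (3.18, SE 0.47, adjusted p = 7.44e-06). In collagen processing 11 of 19 rose and none fell, Serpinh1, the collagen chaperone, with 297 ± 194 and 2812 ± 646 CPM (3.18, SE 0.48, adjusted p = 9.74e-06) and P4hb with 573 ± 256 and 2301 ± 132 (1.94, SE 0.25, adjusted p = 9.50e-07). Of 31 translocation and export genes 9 rose and none fell, among them Sec61b, a subunit of the translocon, with 236 ± 47.5 and 997 ± 252 CPM (2.02, SE 0.20).

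Basement membrane genes rose in 8 of 13 cases and fell in 1, Lama5. Sparc had 226 ± 199 CPM at E3.5 and 3147 ± 551 in PrE (log2 difference 3.72, SE 0.59, adjusted p = 2.12e-05), Col4a1 34.7 ± 28.6 and 899 ± 222 (4.62, SE 0.57) and Col4a2 36.4 ± 40.8 and 637 ± 169 (4.05, SE 0.65). In the parietal endoderm list 13 of 17 rose and 1 fell, in the visceral list 12 of 17 and 1, in apolipoproteins and serum proteins 13 of 24 and 1, and in endocytosis and lysosome 13 of 31 and 1. Lrp2 had 7.07 ± 11.4 and 2371 ± 864 CPM (8.34, SE 0.97, adjusted p = 1.06e-07), Ctsl 480 ± 236 and 2214 ± 1010 (2.15, SE 0.33) and Apoe 219 ± 157 and 2190 ± 1098 (3.25, SE 0.43). The member that fell in both the visceral and the serum protein list was Apoa1. Ttr had no E3.5 count and 70.3 ± 25.4 CPM in PrE, at least 1368-fold above 3 counts over the E3.5 group.

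**Figure D4:**
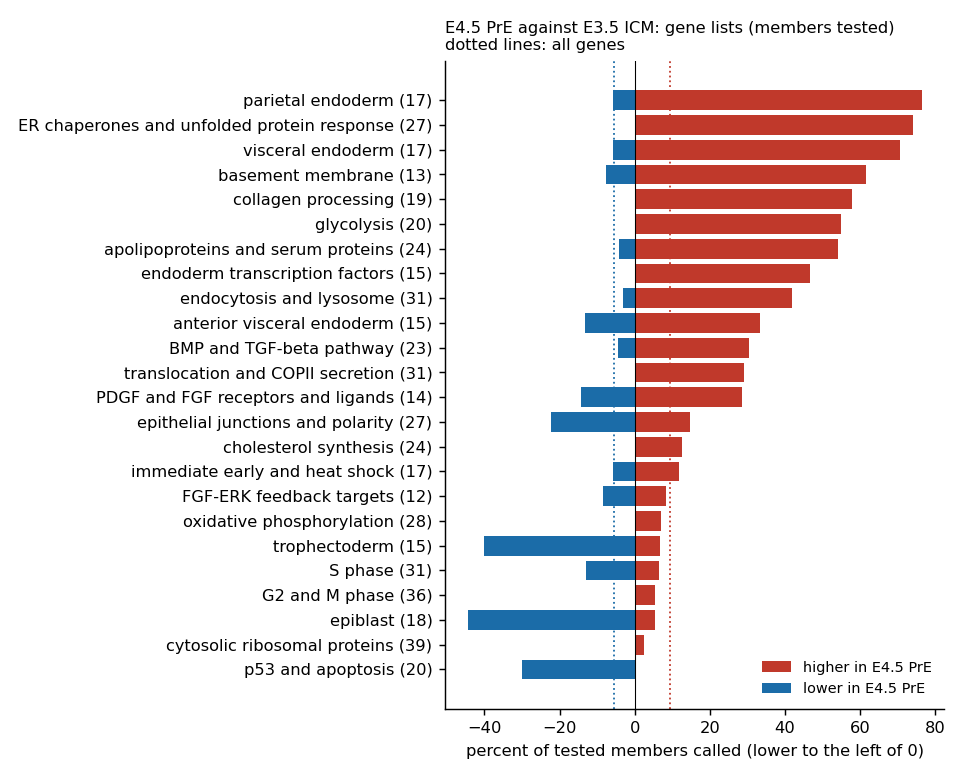
Share of each list's tested genes that were called higher (right, red) or lower (left, blue) in E4.5 PrE than in E3.5 ICM, with the number tested in brackets and dotted lines at the shares of all 12250 genes (9.49% higher, 5.53% lower). Parietal endoderm (13 of 17), ER chaperones (20 of 27) and visceral endoderm (12 of 17) reach furthest to the right, and epiblast (8 of 18) and trophectoderm (6 of 15) furthest to the left.

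Among the endoderm transcription factors 7 of 15 rose and none fell. Gata6, Sox17 and the receptor gene Pdgfra were not called, which does not exclude a change in them. Gata6 was at 239 ± 99.2 CPM at E3.5 and 182 ± 43.0 in PrE (log2 difference -0.46, SE 0.66, adjusted p = 0.734), Sox17 at 41.8 ± 45.5 and 125 ± 51.9 (1.51, SE 1.14, adjusted p = 0.44) and Pdgfra at 80.6 ± 47.1 and 212 ± 47.9 (1.32, SE 0.83, adjusted p = 0.327). Gata4 rose from 20.5 ± 24.1 to 257 ± 64.4 CPM (3.58, SE 0.95, adjusted p = 0.00803). Sox7 had a count in 1 of 99 E3.5 wells and 205 ± 46.7 CPM in PrE (adjusted p = 1.80e-06), and Foxq1 counts in 7 wells and 257 ± 81.2 CPM. Foxa2 had no E3.5 count and 36.3 ± 10.7 CPM in PrE, at least 707-fold above 3 counts over the E3.5 group.

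Signalling lists held both rises and drops, beside 9.49% higher and 5.53% lower over all genes, with 7 higher and 1 lower of 23 in the BMP and TGF-beta list, 5 and 2 of 15 in the anterior visceral endoderm list, 4 and 2 of 14 among PDGF and FGF receptors and ligands and 1 and 1 of 12 among FGF-ERK feedback targets. Fgfr1 fell from 98.8 ± 62.8 to 11.4 ± 7.22 CPM (log2 difference -3.19, SE 0.75, adjusted p = 0.00300) and the adaptor Grb2 from 128 ± 56.1 to 34.4 ± 3.40 (-1.98, SE 0.51, adjusted p = 0.0064; in single wells alone -1.59 and adjusted p = 0.073), while Fgfr3 rose from 0.16 ± 0.50 to 122 ± 35.7 CPM (adjusted p = 1.62e-05) and Fgfr2 was at 27.3 ± 23.0 and 44.2 ± 23.4 (adjusted p = 0.798). Lefty1 rose from 0.95 ± 2.59 to 164 ± 133 CPM (adjusted p = 0.000244), with 396, 112, 120, 137 and 54.4 in embryos 1 to 5. Lefty2 was among the 5 genes with the largest rise, with no E3.5 count and 1176, 92.6, 30.1, 107 and 82.9 CPM, at least 5799-fold above 3 counts over the E3.5 group and at least 1524-fold without embryo 1. Nodal had no E3.5 count and 42.6, 22.7, 11.98, 6.14 and 4.14 CPM, at least 341-fold and, without embryo 1, at least 219-fold above that floor. The other 4 largest rises, all with no E3.5 count, were Car4, a carbonic anhydrase (172 ± 115 CPM, at least 3355-fold), Podxl, the sialomucin podocalyxin (112 ± 34.4, at least 2183-fold), Habp2, a serum protease (110 ± 58.0, at least 2134-fold), and Fstl1, a follistatin-like protein (106 ± 45.6, at least 2061-fold).

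Metabolic and other lists moved less uniformly, beside 9.49% higher and 5.53% lower over all genes. Of 20 glycolysis genes 11 rose and none fell, among them Ldha, lactate dehydrogenase A, from 20.9 ± 30.5 to 2911 ± 1089 CPM (log2 difference 7.04, SE 0.78, adjusted p = 4.41e-08) and Eno1 from 70.8 ± 29.4 to 719 ± 177 (3.29, SE 0.24); both were also present in the other E4.5 wells, at 2200 ± 793 and 800 ± 303 CPM. In contrast, 2 of 28 oxidative phosphorylation genes, 1 of 39 ribosomal protein genes and 2 of 36 G2 and M phase genes were called, all higher. Cholesterol synthesis had 3 of 24 higher, among them Cyp51 and Insig1. Of 20 genes of p53 and apoptosis 6 fell, among them Bax, Bok, Cdkn1a, Pmaip1 and Trp53, and none rose. Bax, a promoter of apoptosis, fell from 418 ± 92.5 to 170 ± 16.0 CPM (-1.37, SE 0.31, adjusted p = 0.00178). Hspb1, a small heat shock protein, rose from 6.84 ± 7.82 to 453 ± 155 CPM (5.96, SE 0.68).

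Epiblast genes fell in 8 of 18 cases and 1 rose, and trophectoderm genes fell in 6 of 15 and 1 rose. Tdgf1 fell from 1135 ± 429 to 83.6 ± 50.7 CPM (log2 difference -3.82, SE 0.73, adjusted p = 0.000292), and the difference was -7.65 without the 6 wells of small score difference. Pou5f1, encoding Oct4, fell from 1835 ± 313 to 627 ± 210 CPM (-1.62, SE 0.52, adjusted p = 0.0283), a call lost without embryo 1 (adjusted p = 0.0541), 4 (0.0743) or 5 (0.0853), and it kept counts in 79 of 79 PrE wells. Tfcp2l1 fell from 670 ± 194 to 37.1 ± 16.4 CPM (-4.25, SE 0.99). The 6 trophectoderm markers together had 7.96 to 84.1 CPM in the PrE sums and 132 to 1274 in the E3.5 sums, where each of the 6 had counts, among them Cdx2 in 4 of 99 wells and Krt8 in 68. Their part in the list's drop was not tested. The largest drops overall were those of Trim43c, AC140240.1, Gm15622, Gm5612 and AC134841.1, with means of 187 to 391 CPM over the E3.5 sums (TMM-scaled) and no count in PrE for the first 4; Trim43c at least belongs to a family of near-identical copies, and all 5 values are uncertain for that reason.

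PrE cells of an embryo were a little closer to each other than ICM cells were, but not under every setting. The distance between 2 cells was sqrt((1 - rho) / 2), where rho is the rank correlation of their plate-corrected levels over 500 genes that varied most in the group, and the median of all pairs was taken in each embryo with at least 4 cells. The rule genes were not left out when these genes were picked. PrE wells had been chosen by expression and E3.5 wells had not, so the comparison is not independent of the choice. Wells labelled double were 31 of 79 in PrE and 9 of 99 at E3.5. PrE had 0.490, 0.423, 0.427, 0.442 and 0.434 in the 5 embryos, and the 6 E3.5 sets had 0.459 to 0.504; the lowest of these was the set of 9 wells without an embryo number. Only embryo 1 of PrE lay within the E3.5 range. The means were 0.443 ± 0.0274 (SD, n = 5) and 0.480 ± 0.0175 (n = 6), a difference of -0.0365 (exact two-sided permutation test over 462 arrangements, p = 0.0325). With single wells only the difference was -0.0198 (exact permutation p = 0.21) and without the plate correction -0.0236 (exact permutation p = 0.262), so it was then within the spread between embryos. Without PrE embryo 2, 3, 4 or 5 the exact permutation p was 0.0619, 0.0619, 0.0524 and 0.0524, with differences between -0.0363 and -0.0314, and without the unnumbered E3.5 wells the difference was -0.0527 (exact permutation p = 0.0238).

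**Figure D5:**
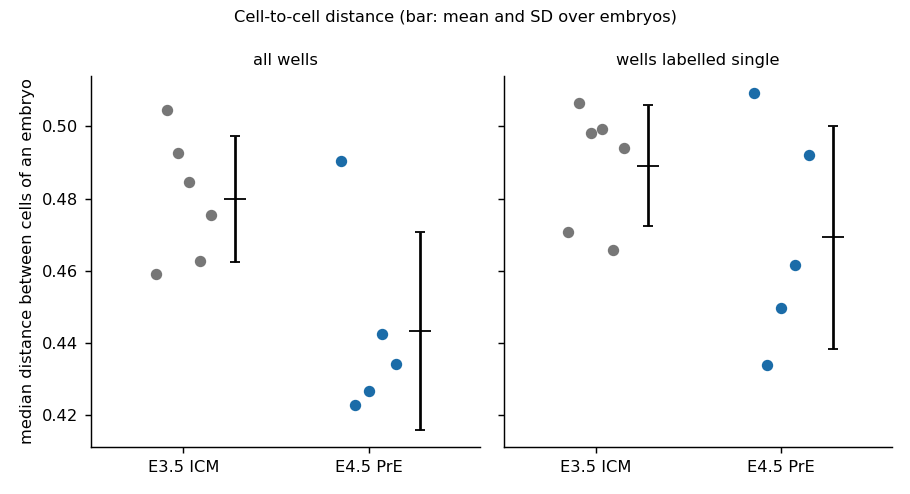
Median distance between the cells of an embryo (points; no unit) at E3.5 and in E4.5 PrE, for all wells (left) and wells labelled single (right), with mean and SD over embryos beside them; the vertical axis does not start at 0. On the left 4 of 5 PrE embryos (0.423 to 0.443) lie below the 6 E3.5 embryos (0.459 to 0.504), and on the right the groups overlap.

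Double wells held more detected genes than single wells in most embryos, and no gene was called between them by edgeR. With embryo as block, 0 of 9538 genes (0%) were called by edgeR, 317 had an unadjusted p under 0.05, and DESeq2 called 2 genes, Armc5 and Sirt3. Double wells had a mean of 569 ± 482 (SD, n = 5 embryos) more detected genes, more in 4 of 5 embryos (exact two-sided permutation p = 0.125, the smallest possible being 0.0625), and 467 ± 557 more after all wells were thinned to 200000 counts, which 1 shallower E4.5 well did not reach (exact permutation p = 0.188). Between plates, P1 with 2 and P2 with 3 embryos, 0 of 11144 genes (0%) were called by edgeR, 609 had an unadjusted p under 0.05, and DESeq2 called 17. Of these 13 were lower on P1, among them Fos, Ier2 and Hmgcs1, and 4 were higher. Plate and embryo cannot be told apart.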

How the data were processed

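Single cells, or pairs of cells, were picked by hand and sequenced as separate SMART-seq2 libraries after separation of RNA from DNA. Per the paper's methods, the authors trimmed reads with Trim Galore, aligned them to GRCm38 with HISAT2 (the submitters' processing notes give versions 0.4.3 and 2.0.5, the methods other ones), dropped reads whose mapping quality was under 20 and deposited raw counts per gene, after removing cells under 4000 genes or over 10% mitochondrial reads, trophoblast cells and wells of more than 2 cells. The table holds 24483 rows for chromosomes 1 to 19; X, Y and mitochondrial genes were not analysed here.

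Counts were summed per embryo over at least 3 PrE wells (2 per label for double against single wells) and tested with edgeR 4.0.16 (R 4.3.3; TMM scaling, filterByExpr, quasi-likelihood), with Benjamini-Hochberg adjustment; DESeq2 1.42.0 was the alternative. E6.5 wells that pass the rule stayed in the fit of PrE against E3.5 for the estimate of spread. CPM levels in the text come from summed raw counts and fold changes from the fit. Plate was corrected with ComBat (sva 3.50.0) for distances, with mean CPM of at least 10. Scores and promoter searches used Python 3.11.15. Scripts were tested on simulated data.

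The members, the 24 gene lists and the anchors were chosen with earlier results of these data known. Named were list genes, the 5 largest called rises and drops with groups that do not overlap, the 20 most variable genes and the genes closest to each anchor. Embryos of a stage are the replicates; those of different stages share at most a number. Some genes are not reported here.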

Additional observations from a re-analysis of the deposited data

Results flagged for a closer look

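Of 112 values with 1 figure for each of the 5 PrE embryos, 11 had 1 embryo whose gap to the nearest other exceeded 0.71 of the whole range; chance gives about 1 in 20. Embryo 1 was highest for Xbp1 (725.5 CPM, others 381.5 to 479.6), Lefty1 (395.9, others 54.39 to 137.3) and Lefty2 (1176, others 30.05 to 107.4) and for the median distance between PrE cells (0.4905, others 0.4229 to 0.4425). Embryo 3 was highest for Fos (204.6 CPM, others 1.788 to 58.22) and Fosb (86.92, others 0 to 20.46) and lowest for the cell-to-cell spread of basement membrane genes (SD 0.4169, others 0.8131 to 0.9615). Its PrE wells had 6974 to 8510 detected genes, against 4627 to 9125 over all PrE wells. Embryo 4 was highest for Id1 (598.6 CPM, others 199.9 to 247.9). Embryo 5 was highest for Nanog (39.06 CPM, others 2.099 to 12.52), and 2 of its 19 PrE wells are among the 6 of small score difference. It was lowest for the mean score of endoderm transcription factors (5.386, others 5.733 to 5.864) and of translocation and COPII secretion (7.206, others 7.36 to 7.395).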

How the results depend on the processing

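The comparison of PrE with E3.5 called 1501 to 2664 genes under 14 alternatives, against 1841, among them 1853 with the 6 wells of small score difference left out and 1746 without the E3.5 wells that lack an embryo number. Double against single wells called 0 genes, also with no replicate block, and 2 with DESeq2; plates called 17 with DESeq2 and 29 with no filter on low counts. Embryos of different stages share no pairing. The difference in cell-to-cell distance was -0.0236 without batch correction and -0.0198 in single wells, and ran from -0.0483 to -0.0314 with each PrE embryo left out; the cause was not tested. The median spread of program scores, 0.74, was 0.432 with a pseudocount of 10, as a larger pseudocount shrinks differences at low levels. The 12 pairs of programs became 25 in single wells, 21 with a pseudocount of 10, 7 with a score difference above 1, 7 above 4, 63 with depth not regressed out and 14 to 28 with each embryo left out, where fewer embryos must share a sign. BMP and TGF-beta against cholesterol synthesis went from -0.40 to 0.0124 with depth not regressed out. Leaving out wells of small score difference with the limit at 4, and leaving out the unnumbered E3.5 wells from the distances, were chosen after seeing the data. The alternatives for E6.5 endoderm were not run, since the rule finds no endoderm class there. At 182338 counts in the shallowest well, a gene at a few CPM can be missed, so absence of a count in a well is not absence of the transcript.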
